A study of Mus musculus with 2 samples.

Results

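Imprinted genes are transcribed mainly from the copy inherited from 1 parent, and 10 protein-coding genes of this kind were followed here in new and preexisting RNA of mouse embryonic stem cells of wild type. They are Mest, Peg3, Impact, Peg10, Nnat, Plagl1 and Sgce, known for expression from the paternal copy, and Igf2r, Grb10 and Cdkn1c, known for expression from the maternal copy in most tissues. The members were chosen by gene symbol and by the protein-coding biotype of their transcripts in GENCODE M21 (GRCm38). The rule uses no measured value, but the genes were picked with earlier results of these data known. All 10 genes were found among the 21587 protein-coding genes of the table, and 43 of their 49 annotated coding transcripts had a value, of 49490 coding transcripts in all. The 6 without one, 4 of Impact and 2 of Cdkn1c, were not analysed here.

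The parental choice at these genes is kept by DNA methylation that differs between the copies at imprinting control regions, many of which lie in CpG-rich promoters. Several members act on growth: Igf2r clears the growth factor IGF2, Grb10 restrains insulin and IGF signaling, and Cdkn1c inhibits cyclin-dependent kinases. Levels of imprinted genes in embryonic stem cells are known to vary between lines and passages, since their methylation can be lost in culture. The values below do not separate the parental copies.

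The cells were DTCM23/49 XY embryonic stem cells of genotype WT, depleted of feeder cells and grown with serum and leukemia inhibitory factor. Both samples come from cells given 4-thiouridine (4sU), a uridine analogue built into new RNA, at 200 µM for 10 min. RNA that carried 4sU was bound through biotin and sequenced as the labeled library of replicate 1, and the RNA left unbound gave the other library of replicate 1. The labels name the latter preexisting RNA in one field and total RNA in another, and it is treated as unlabeled RNA, as in the study's method. There is thus 1 library per pool and no replicate, so no test was made and no difference has a replicate error. The files hold no read counts, so the depth is unknown. Values are relative abundances per length, with a library total 10 times larger than TPM would give, and are called deposited units below.

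The cells carried their defining markers. All 10 pluripotency genes exceeded the minimum used here, a mean exon value of the libraries above 1 deposited unit, with means from 90.4 to 5577. Of 10 fibroblast markers 6 exceeded it, with summed values of 22.9 labeled and 61.7 unlabeled. Acta2 was the highest, with 10.9 and 38.6, and Col3a1, Postn and Lum were listed at 0. Of 6 trophoblast markers 2 exceeded it, with Elf5 and Tpbpa at 0 and sums of 3.28 and 7.46. Hand1 was the highest, with 0.63 labeled and 6.48 unlabeled. Of 6 primitive endoderm markers 3 exceeded it, with Gata6, Sox17 and Foxa2 at 0 and sums of 22.8 and 122.5. Most of these sums came from Dab2, with 15.7 labeled and 108.2 unlabeled. Of 6 neural markers 5 exceeded it, with sums of 247.65 labeled and 385.2 unlabeled. Tubb3 was the highest, with 132.7 and 156.9, then Map2 with 29.4 and 130.8 and Pax6 with 68.7 and 70.5. The mean of Tubb3, 144.8, was above the lowest pluripotency mean. The part of such cells in the members' values was not tested, and fewer cells of a type and less RNA per cell cannot be told apart in bulk RNA.

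Promoter sequences place the starts from which the members are transcribed. RefSeq windows (GRCm38.p6) of 250 bases before to 50 bases after a gene's start were held for 6 members, as 9 windows. Those of Impact, Peg10, Sgce and Cdkn1c were not used here. Printed here are an upstream and a downstream start of Mest and of Grb10, because transcripts can be compared between them. Other transcripts of these genes begin elsewhere, outside the windows held. Also printed are Peg3, whose start faces that of Usp29, and Igf2r, whose exon ratio was the lowest of the members. Capitals mark CpG dinucleotides, the sites of DNA methylation.
Mest upstream start, chr6:30733256-30733555, plus strand: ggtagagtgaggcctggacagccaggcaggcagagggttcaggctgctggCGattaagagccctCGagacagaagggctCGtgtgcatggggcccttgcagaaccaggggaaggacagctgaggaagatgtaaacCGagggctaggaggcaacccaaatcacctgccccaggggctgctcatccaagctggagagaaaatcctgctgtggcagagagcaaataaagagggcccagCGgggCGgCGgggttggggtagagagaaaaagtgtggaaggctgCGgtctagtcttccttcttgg
Mest downstream start, chr6:30737800-30738099, plus strand: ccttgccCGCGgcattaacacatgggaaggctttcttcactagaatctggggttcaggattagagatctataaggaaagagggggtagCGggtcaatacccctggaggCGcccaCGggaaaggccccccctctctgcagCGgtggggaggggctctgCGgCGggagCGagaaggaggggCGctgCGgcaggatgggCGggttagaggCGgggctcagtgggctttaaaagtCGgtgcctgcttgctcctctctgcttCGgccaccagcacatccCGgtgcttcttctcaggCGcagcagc
Grb10 upstream start, chr11:12037371-12037670, minus strand: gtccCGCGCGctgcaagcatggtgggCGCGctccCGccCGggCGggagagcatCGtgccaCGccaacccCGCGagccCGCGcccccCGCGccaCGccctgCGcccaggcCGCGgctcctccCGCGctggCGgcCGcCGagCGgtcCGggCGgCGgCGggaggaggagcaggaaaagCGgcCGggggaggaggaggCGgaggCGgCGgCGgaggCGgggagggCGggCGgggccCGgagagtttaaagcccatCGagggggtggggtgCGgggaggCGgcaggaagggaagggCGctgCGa
Grb10 downstream start, chr11:12027922-12028221, minus strand: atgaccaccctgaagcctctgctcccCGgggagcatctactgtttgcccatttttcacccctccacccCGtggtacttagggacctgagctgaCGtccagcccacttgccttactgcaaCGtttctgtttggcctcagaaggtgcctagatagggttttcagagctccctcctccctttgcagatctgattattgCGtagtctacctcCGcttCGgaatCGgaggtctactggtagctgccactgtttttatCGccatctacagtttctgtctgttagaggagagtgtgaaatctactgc
Peg3, chr7:6730370-6730669, minus strand: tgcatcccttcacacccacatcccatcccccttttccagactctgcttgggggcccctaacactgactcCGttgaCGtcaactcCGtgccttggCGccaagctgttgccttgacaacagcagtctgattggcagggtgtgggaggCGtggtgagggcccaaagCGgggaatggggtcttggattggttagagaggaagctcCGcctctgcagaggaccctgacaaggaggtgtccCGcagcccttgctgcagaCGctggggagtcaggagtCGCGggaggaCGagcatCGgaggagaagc
Igf2r, chr17:12769657-12769956, minus strand: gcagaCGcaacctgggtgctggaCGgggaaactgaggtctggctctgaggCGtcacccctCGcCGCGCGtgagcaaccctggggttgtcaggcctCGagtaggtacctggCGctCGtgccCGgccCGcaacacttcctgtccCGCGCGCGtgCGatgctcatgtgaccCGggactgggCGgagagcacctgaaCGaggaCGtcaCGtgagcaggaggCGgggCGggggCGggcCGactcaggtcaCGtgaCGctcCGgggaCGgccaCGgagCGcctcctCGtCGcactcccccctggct

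All 9 windows held more CpG than the median of 7 over the 32851 windows in the table. The count was 45 at the upstream start of Grb10, at percentile 98.2 of all windows, and 9 at its downstream start. Igf2r had 34, Plagl1 26, Nnat 17 and Peg3 13. The upstream start of Mest had 8 and the downstream start 17. The letters TGCCGC, bound by the imprint protector Zfp57 when methylated, were sought on both strands. They stood in 5 of the 9 windows, in those of 4 genes, with 2 copies in the downstream window of Mest and none in that of Igf2r. A pair of the 9 windows cover nearly the same bases of Mest. The share over all windows was 11.6%, and it was 21.0% over the 15982 windows with at least 8 CpG. The 5 windows with the letters held 17 to 45 CpG, so that share is not matched for CpG. Sequence outside the windows was not searched. The letters CCATNTT, the core bound by Yy1, stood in 2 of the 9, those of Nnat and of the downstream start of Grb10, against 16.1% of all windows. A match of letters is a description and not a bound site.

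The members covered a wide range of levels. Summed over the coding transcripts of a gene, exon values ran from 59.4 in Igf2r to 1865 in Mest in unlabeled RNA, a 31.4-fold range. In labeled RNA they ran from 12.6 to 928.2 in the same genes, a 73.7-fold range. Mest, Peg3, Peg10 and Grb10 stood highest, at or above percentile 90.1 of the 14127 protein-coding genes above the minimum. Igf2r, Cdkn1c, Plagl1 and Sgce stood near the middle, at percentiles 49.0 to 56.3. In every member the unlabeled value was the higher one, as the plot of levels shows, where 41.3% of all genes had the higher value in labeled RNA.

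**Figure D1:**
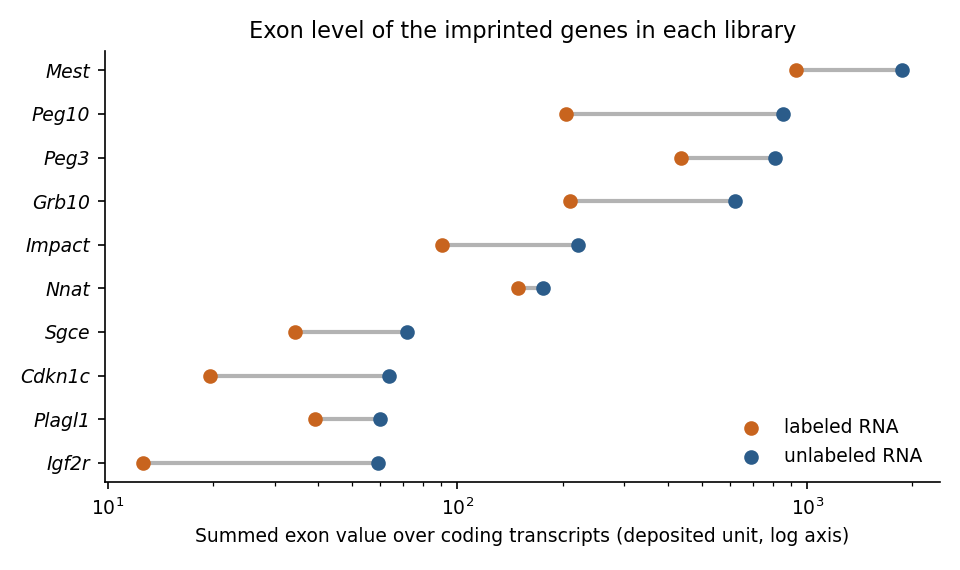
Exon values of the 10 imprinted genes, summed over coding transcripts, in deposited units on a log axis, with 1 point per library. The unlabeled point (blue) lies to the right of the labeled point (orange) in every gene, with the gap smallest in Nnat and largest in Igf2r.

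Values of single transcripts depend on how reads were divided among transcripts that share exons. Across genes with a summed mean above 100 units, the leading transcript, the one with the highest mean exon value, carried a median of 55.6% in the 923 genes of 2 coding transcripts and 21.8% in the 180 genes of 7. Among the members it carried 15.5% in Sgce, 18.0% in Nnat, 21.0% in Plagl1, 30.0% in Mest, 35.8% in Peg10, 42.7% in Grb10 and 50.7% in Cdkn1c. Peg3, Impact and Igf2r each had 1 coding transcript with a value.

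The first comparison sets each gene's relative exon level in labeled RNA against that in unlabeled RNA. Both libraries are scaled to the same total. The ratio thus ranks genes and does not give the part of a gene's RNA that was new. The labeled to unlabeled exon ratio was set against that of the median gene, whose ratio was 0.837, or -0.26 on the log2 scale. Of the 10 members, 9 lay below the median gene, and the members' median was -0.92 on the centred log2 scale, or 1.89-fold below it. The middle 50% of all genes lay between -0.68 and 0.84. More than 2-fold below the median gene were 5 members, Igf2r, Peg10, Cdkn1c, Grb10 and Impact, where 14.8% of all 14127 genes were. None was more than 2-fold above it, where 21.9% of all genes were.

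**Figure D2:**
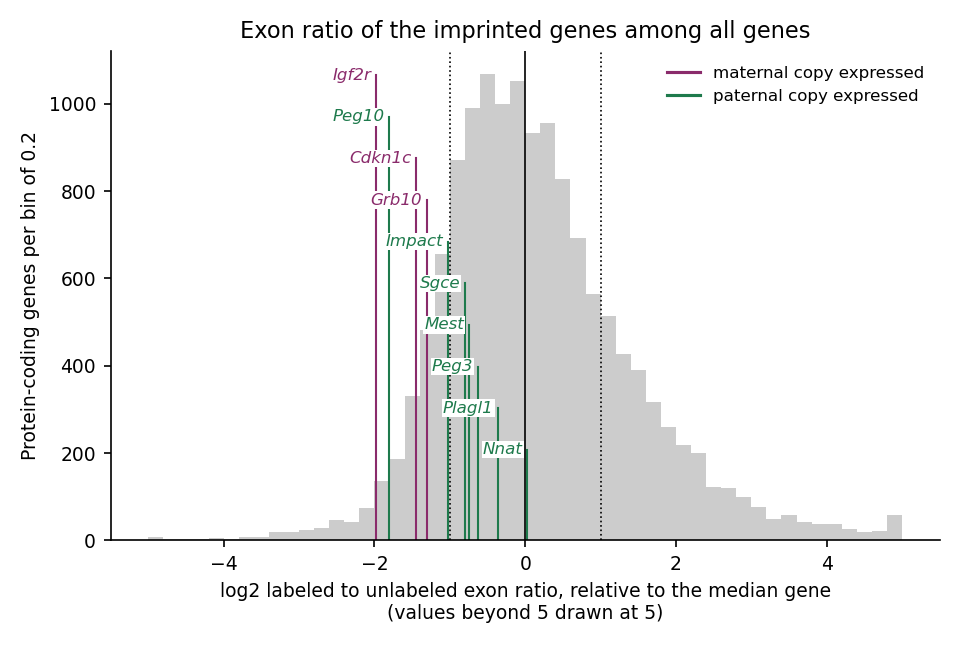
Distribution of the centred log2 labeled to unlabeled exon ratio over 14127 protein-coding genes (grey, genes per bin of 0.2), with a line for each of the 10 imprinted genes, coloured by the copy it is known to be expressed from. Dotted lines mark 2-fold. Igf2r at -1.98 and Peg10 at -1.80 lie farthest to the left, and Nnat at 0.03 lies at the median gene.

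More abundant genes had lower exon ratios in general. By decile of mean exon value, the median centred log2 ratio ran from 0.77 in the lowest to -0.47 in the highest, and the members stand in deciles 5 to 10. Set against the median gene of its own decile, a comparison chosen after seeing the data, 9 members still lay below and their median was -0.77. Igf2r, Peg10 and Cdkn1c remained more than 2-fold below, 3 members, where 14.2% of all genes were.

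The 3 members known for expression from the maternal copy were all more than 2-fold below the median gene. So were 2 of the 7 known for expression from the paternal copy, where 14.8% of all genes were. Which copy these cells expressed was not tested. Against the median gene of the same level decile, Grb10 at -0.84 and Impact at -0.76 were no longer past 2-fold. The medians against the median gene were -1.45 and -0.75 on the centred log2 scale. With 3 and 7 genes this is a description.

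Igf2r, the receptor that carries IGF2 and lysosomal enzymes to the lysosome, had 12.6 units in labeled and 59.4 in unlabeled RNA, from Igf2r-201 (ENSMUST00000024599, chromosome 17, 12682406 to 12769664, minus strand, 48 exons). The ratio of 0.212 lay at percentile 2.14 of all genes. Its introns went the other way, with 10.04 units labeled and 1.88 unlabeled, a ratio of 5.34 against 3.90 for the median gene. New RNA of Igf2r thus held nearly as much intron as exon, at 0.797, and preexisting RNA held 0.0316. The antisense noncoding RNA Airn, known to silence the paternal copy of Igf2r in differentiated tissue, overlaps 28354 bases at its 5′ end on the opposite strand. Airn was listed at 5.96 units in labeled and at 0 in unlabeled RNA. Whether the reads were counted by strand is not given in the sources used here, so reads of Airn and of the introns it overlaps cannot be told apart.

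Grb10, the adaptor that binds insulin and IGF receptors, had 209.39 units labeled and 620.0 unlabeled over 6 coding transcripts, a ratio of 0.338. Its 2 longest transcripts begin at the different starts printed above. Grb10-201, from the CpG-rich upstream start, had 77.1 labeled and 198.17 unlabeled. Grb10-203 (ENSMUST00000109654, chromosome 11, 11930508 to 12027971, minus strand, 16 exons), from the downstream start, had 84.1 and 269.62. The ratios were 0.389 and 0.312, so transcripts of both starts had a lower exon value in labeled than in unlabeled RNA. The 6 coding transcripts ranged from 0.186 to 0.408, and none was higher in labeled RNA.

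Cdkn1c, the cyclin-dependent kinase inhibitor also called p57, had 19.6 units labeled and 63.9 unlabeled, a ratio of 0.306. Its transcripts Cdkn1c-201 and Cdkn1c-202 (ENSMUST00000167912, chromosome 7, 143458339 to 143460996, minus strand, 4 exons) were nearly equal, with 9.42 and 10.1 labeled and 31.7 and 32.2 unlabeled. Both intron rows were listed at 0 in both libraries, so the gene has no intron ratio. The antisense gene Gm44732 lies inside it and was not analysed here.

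Mest, a hydrolase-like protein of mesoderm, had the highest level, with 928.22 units labeled and 1865 unlabeled. Its leading transcript was Mest-210 (ENSMUST00000157040, chromosome 6, 30733506 to 30748462, plus strand, 12 exons), from the upstream start, with 290.32 and 547.54. Mest-211 and Mest-202, from the downstream start, had 302.72 and 259.98 labeled, and 473.84 and 488.38 unlabeled. The 3 long transcripts were thus of like level and like ratio, between 0.530 and 0.639, within the limits of how shared reads were divided. The 3 short coding transcripts, of 382 to 646 exon bases, had lower ratios, from 0.178 to 0.246. Mest-207 among them begins near the upstream start, and none begins at the downstream start. Summed by start, the ratio was 0.472 upstream, with Mest-207 included, and 0.585 downstream. Length and start thus cannot be told apart in the short transcripts. The gene Mir335 lies inside Mest on the same strand and was listed at 0. Copg2 overlaps the end of Mest by 912 bases on the opposite strand. Over coding transcripts, the ratio of Copg2 at -0.15 on the centred log2 scale was above that of Mest at -0.75. These transcripts of Copg2 had 117.76 units labeled and 156.24 unlabeled. Over all its transcripts Copg2 had 296.35 and 539.94, a lower ratio.

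Peg3, a zinc finger protein, had 436.78 units labeled and 807.38 unlabeled in Peg3-201 (ENSMUST00000051209, chromosome 7, 6703892 to 6730421, minus strand, 9 exons), a ratio of 0.541. A retained-intron transcript of the gene, Peg3-204, went the other way, with 199.43 labeled and 115.36 unlabeled, a ratio of 1.73. Usp29, which starts 147 bases away on the opposite strand, had 43.7 and 53.4 units over all its transcripts and a centred log2 ratio of -0.03.

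Plagl1, a zinc finger transcription factor that acts on other imprinted genes, had 39.2 units labeled and 60.1 unlabeled over 7 coding transcripts, a ratio of 0.652. The leading transcript Plagl1-201 (ENSMUST00000121325, chromosome 10, 13090832 to 13130982, plus strand, 9 exons) had 7.71 and 13.1. The transcripts ranged from 0.400 to 1.53, and 2 of them, Plagl1-220 and Plagl1-222, were higher in labeled RNA. All are under 14 units in each library, so their differences rest on low values.

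Peg10 and Sgce are neighbours on chromosome 6 whose starts lie 99 bases apart on opposite strands. Peg10 derives from a retrotransposon and is needed in the placenta, and Sgce encodes epsilon-sarcoglycan. Peg10 had 204.66 units labeled and 853.97 unlabeled, and Sgce 34.3 and 71.6. Peg10 exceeded Sgce 11.9-fold in unlabeled and 5.96-fold in labeled exons, but 1.52-fold and 2.12-fold in introns. The pair thus stood far apart in preexisting exon signal and much closer in intron signal. The centred log2 exon ratio was -1.80 in Peg10 and -0.80 in Sgce. The 3 transcripts of Peg10 lay within 0.228 to 0.250 of the unlabeled value, the leading one being Peg10-203 (ENSMUST00000176551, 4747406 to 4760517, plus strand, 2 exons). The 7 of Sgce lay within 0.384 to 0.591, led by Sgce-209 (ENSMUST00000133306, 4674418 to 4747124, minus strand, 12 exons).

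Impact, an inhibitor of the kinase Gcn2, had 90.7 units labeled and 221.23 unlabeled in Impact-201 (ENSMUST00000025290, chromosome 18, 12971923 to 12992950, plus strand, 11 exons), a ratio of 0.410. At -1.03 on the centred log2 scale it lay just past the 2-fold limit, and Sgce at -0.80 was the nearest member inside it. Impact lay inside it with a minimum of 10 units, with the leading transcripts alone and against its level decile. Sgce lay past it with no centring, all transcripts summed, the leading transcripts alone or leakage subtracted. The noncoding Gm26407, within Impact on the same strand, had 13.9 and 35.7 units.

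Nnat, neuronatin, a small membrane protein of the endoplasmic reticulum, had the highest exon ratio of the members, with 149.52 units labeled and 175.41 unlabeled. Its ratio of 0.852 lay at the median gene (0.03 on the centred log2 scale), though Nnat lay below the median gene with no minimum, all transcripts summed or the leading transcript alone. Of its 7 coding transcripts above the minimum, 3 were higher in labeled RNA, from 1.23 upwards, such as Nnat-201 with 19.6 units labeled and 13.1 unlabeled. Its leading transcript was Nnat-205 (ENSMUST00000153739, chromosome 2, 157560078 to 157562504, plus strand, 2 exons). The gene lies within Blcap, on the opposite strand, and Blcap had a centred log2 ratio of -1.24.

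Counted over transcripts, 5 of the 41 coding transcripts above the minimum, or 12.2%, were higher in labeled than in unlabeled RNA, where 38.3% of 34280 coding transcripts were. They belong to Nnat and Plagl1. Of 28 other transcripts of the same genes 3 were higher in labeled RNA, namely Peg3-204, Mest-204 and Grb10-205. Mest-204 had 8.69 against 5.36 units and Grb10-205 had 15.5 against 10.7. Over all coding genes, 55% of 12670 retained-intron transcripts, 47.2% of 8106 processed transcripts and 39.5% of 4145 nonsense-mediated decay transcripts were higher in labeled RNA. Transcripts of a gene share exons, so these counts are not of independent values.

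**Figure D3:**
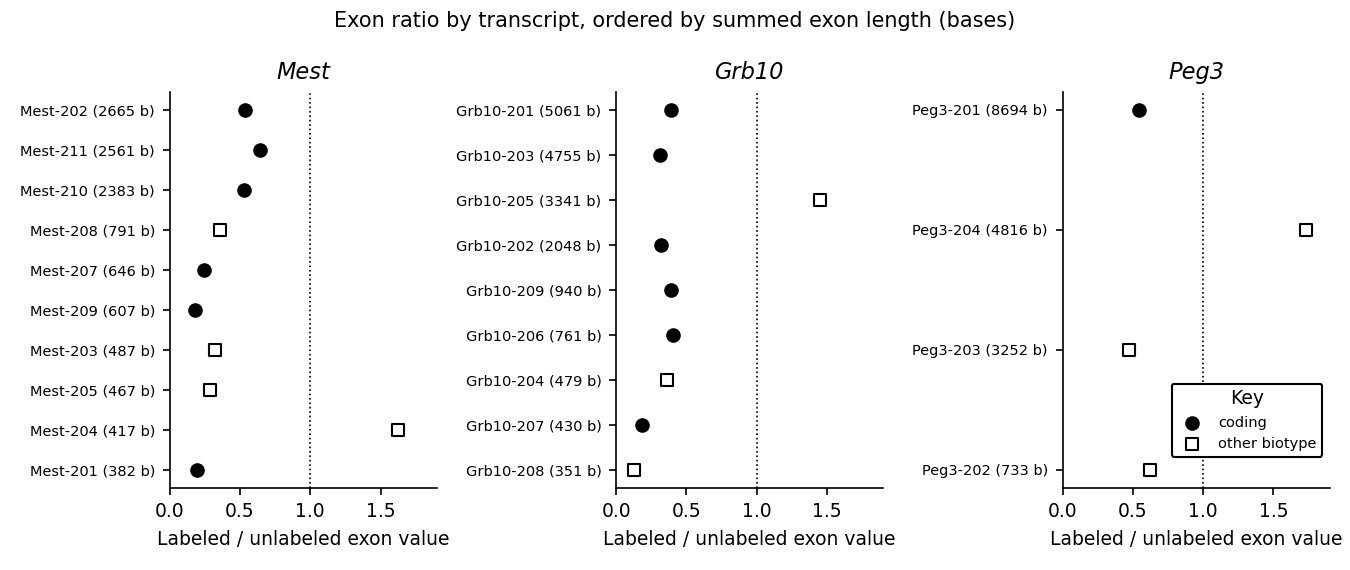
Labeled to unlabeled exon value of the transcripts of Mest, Grb10 and Peg3 above the minimum, ordered by summed exon length in bases. Filled circles are coding transcripts, open squares other biotypes, and the dotted line marks equal values. All coding transcripts lie below 1, and Mest-204, Grb10-205 and Peg3-204 lie above it.

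Introns are removed during splicing and so mark RNA that is not yet processed. The labeled to unlabeled intron ratio was set against that of the median gene, 3.90, over 13026 genes. It could be had for 9 members, of which 6 lay below the median gene, where 50% of genes do, and the members' median was -0.23 on the centred log2 scale. None was more than 2-fold below or above it, where 10.5% and 9.1% of genes were. Of the 5 members past 2-fold in exons, the 4 with introns lay between -0.23 and 0.55 in introns. Peg10 had an intron ratio of 5.72 (36.4 labeled, 6.37 unlabeled) and Sgce one of 4.09 (17.2 and 4.20). Mest, at 2.01 (93.2 and 46.4), and Peg3, at 2.14 (79.9 and 37.3), had the lowest. The other members with introns lay between, with 109.38 and 32.83 units in Grb10, 67.6 and 27.2 in Nnat, 40.3 and 10.6 in Impact, and 12.7 and 4.66 in Plagl1. All 9 had a higher intron value in the labeled than in the unlabeled library, as did the median gene. The share of all genes that did was not computed, so this count has no background and says nothing particular of the members.

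**Figure D4:**
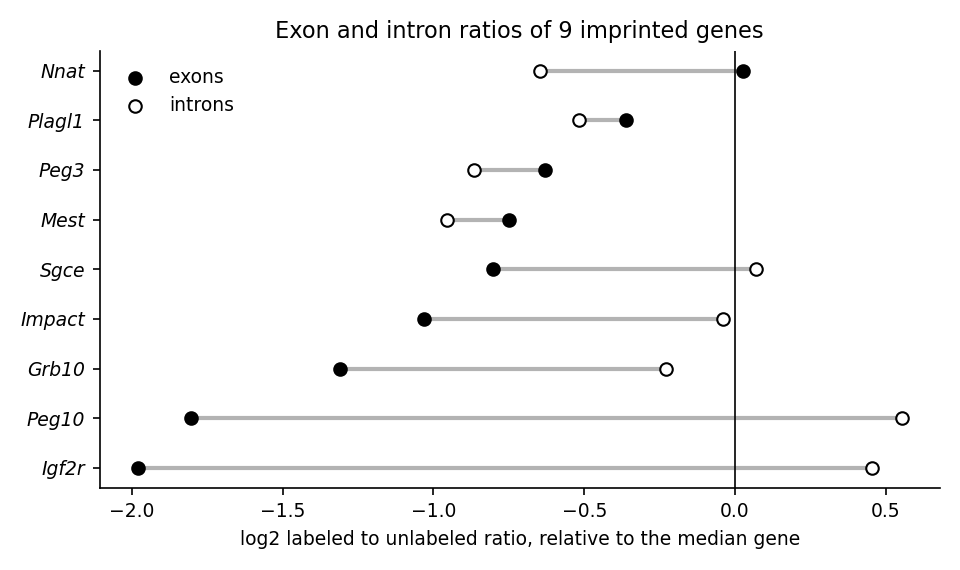
Centred log2 labeled to unlabeled ratio of exons (filled) and introns (open) of the 9 imprinted genes with intron values, with 0 at the median gene of each measure. The gap is widest in Igf2r and Peg10, whose exons lie at -1.98 and -1.80 and whose introns lie at 0.45 and 0.55.

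The intron to exon ratio within a library stands for the unprocessed share of a gene's RNA in the study's model. In labeled RNA, Igf2r at 0.797 was the 1 member above the median gene, at 0.555, and Grb10 at 0.522 and Sgce at 0.500 were close under it. Mest at 0.100, Peg10 at 0.178 and Peg3 at 0.183 were the lowest with a value above 0. In unlabeled RNA, Nnat at 0.155 was the 1 member above the median gene, at 0.114, and Peg10 at 0.00746 was at percentile 6.43. By definition 50% of genes exceed the median in each library. With a minimum of 10 units the median gene was lower and 3 members exceeded it in labeled RNA.

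The study's method places each transcript in the plane of the unlabeled ratio a and the labeled ratio b. It can be solved exactly and without ambiguity above the line b = 1/(2 - a), has no solution or 2 between that line and the diagonal, and does not allow a labeled ratio of 1 or more. Of the 41 coding transcripts above the minimum, the 2 of Cdkn1c have no place in the plane. Of the remaining 39, 31 from 8 genes lay between the line and the diagonal, where 44.2% of 31386 transcripts do. Above the line lay 5, where 22.5% do, including Igf2r-201. A labeled ratio of 1 or more was seen in 3, all of Grb10 with few exons, where 28.2% have one, and no transcript lay at or below the diagonal, where 5.1% lie. With leakage of unlabeled RNA into the labeled library subtracted, 8 had a labeled ratio of 1 or more and 9 lay above the line. The shares of all transcripts after that subtraction were not computed, so these 2 counts have no background to be set against.

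**Figure D5:**
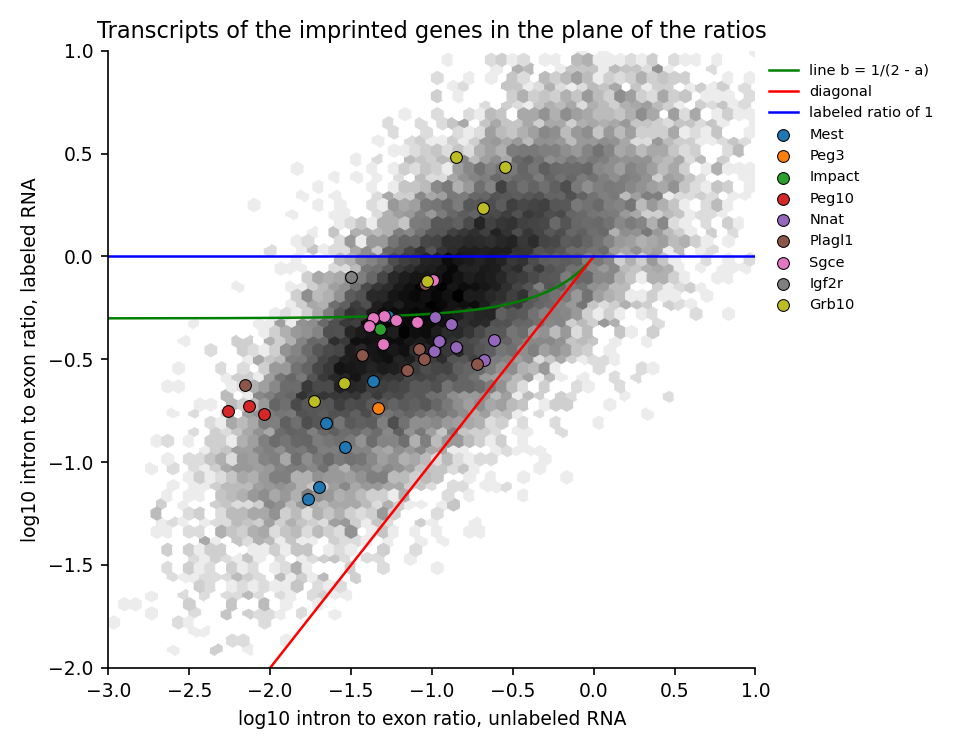
Coding transcripts of 9 imprinted genes (coloured points) in the plane of the log10 intron to exon ratio of unlabeled (x) and labeled (y) RNA, over the density of all transcripts (grey, log scale). Most lie under the green line, those of Mest-210 and Mest-211 lowest, and 3 of Grb10 lie above the blue line at a labeled ratio of 1.

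Rates were computed for the leading transcripts with the study's equations. Igf2r-201 had 1 solution, a degradation half-life of 277.7 min and a processing half-life of 14.5 min. The medians over 20920 transcripts were 18.99 min (quartiles 10.1 and 41.1) and 3.88 min. They include nearest fits for transcripts without a solution, so the comparison is not like for like. The rates of Igf2r-201 rest on 1.88 units of unlabeled intron and a labeled ratio of 0.797, from introns that in part overlap Airn. The study expects lower precision close to a labeled ratio of 1. With the second library read as total RNA the degradation half-life of Igf2r-201 was 446.4 min, and after subtraction of leakage its labeled ratio left the range the model allows. Impact-201 had solutions of 7.50 and 1.34 min for degradation, and Sgce-209 of 11.5 and 0.936 min. After subtraction of leakage they became 57.9 and 91.3 min. The other 6 of the 9 leading transcripts with intron values had no solution, as was the case for 57.2% of the 20920 transcripts. Their nearest fits gave 12.1 min in Nnat to 66.5 min in Mest, but missed the observed ratios by a distance of 0.567 to 2.09 on the natural log scale, and a fit over both variables gave 2.38 to 5.49 min.

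Other imprinted genes lay on both sides of the median gene. Of a list of 73, 49 coding genes were above the minimum. More than 2-fold below the median gene were 12, where 14.8% of all genes were, more than 2-fold above were 10, where 21.9% were, and their median was 0.04 on the centred log2 scale. Lowest among those above 10 units were Dlk1 at -4.81 (0.79 labeled, 26.5 unlabeled), Ube3a at -2.37 and Nap1l5 at -2.10. Highest were Tspan32 at 7.85 (30.8 and 0.16), Tssc4 at 2.82 and Commd1 at 2.17. All 19 genes of a list known to act on imprinted regions or DNA methylation were above the minimum. Of these, 6 were more than 2-fold below the median gene, where 14.8% of all genes were. More than 2-fold above was 1, where 21.9% were, and the median was -0.60. Their mean exon values, from 72.3 to 5213, all exceeded the 38.1 of the median gene. More abundant genes had lower ratios in general, and this list was not set against its level deciles. Uhrf1 at -1.52, Tet1 at -1.38 and Dnmt1 at -1.35 were lowest, and Dppa3 at 1.24, Dnmt3l at 0.83 and Mbd3 at 0.41 highest. Zfp57, the protector of imprints named above, was at -0.09, with 4595 units labeled and 5832 unlabeled.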

How the data were processed

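RNA of 1 replicate of wild-type mouse embryonic stem cells was measured as a labeled and an unlabeled library after 10 min of 4sU. The authors aligned reads outside ribosomal RNA to exons and introns of Ensembl v91 with STAR (2.5.0 in the submitters' notes) and quantified them with RSEM. The deposited score per transcript is called TPM, but each library sums to 10 times a TPM total, over 121429 exon and 91702 intron rows. Of the exon rows 90.9% were found in GENCODE M21. Strand and depth are not given in the sources used here.

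Exon values were summed over the coding transcripts of a gene, log2 labeled to unlabeled ratios were centred on the median of genes with a mean above 1 unit, and 2-fold was taken as a call. Rates followed Eqs. 10 to 17 of the study on 4000 grid points, with the minimum of Eq. 16 where Eq. 13 had no solution and the larger ratio of processing to degradation where it had 2. The solver was tested on simulated data. Leakage is 0.142 times the unlabeled value, which is percentile 1 of that exon ratio over the transcripts of the plane. The members and all gene lists were chosen with earlier results of these data known. All members were named, with their leading transcripts. Other transcripts were considered for naming from 10% of a gene. Of the other imprinted genes and the list of genes acting on imprinted regions, the 3 highest and 3 lowest above 10 units were named. Genes within 5000 bases of a member were named too, apart from some noncoding or pseudogene entries listed at 0 in both libraries. Of the markers of other cell types, those at 0 and the highest were named, the highest after their values were seen. Zfp57, transcripts higher in labeled RNA and those named by start were added after their values were seen. Scripts ran in Python 3.11.15 with scipy 1.17.1, numpy 2.4.6 and pandas 2.3.3, and plots were drawn with matplotlib 3.10.9.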

Additional observations from a re-analysis of the deposited data

How the results depend on the processing

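No paired analysis was possible because each pool has a single library, which leaves no pairs to block on, and no test was run. A value was taken as moved when it changed by over 1.5 times. Under the 6 other settings of the exon ratio that centre on the median gene, 4 to 6 members lay more than 2-fold below it. The share of all genes there ran from 11.3% with a minimum of 10 units, which gave 4, to 21.4% with leakage subtracted, which gave 6. No member lay more than 2-fold above it, where 18.0% to 24.2% of all genes did. Without centring, 7 had a labeled value more than 2-fold below their unlabeled value, where 22.7% of all genes did. None had one more than 2-fold above, where 17.4% did. Centring on the level decile, chosen after seeing the data, gave 3 more than 2-fold below, where 14.2% of all genes were. With a minimum of 10 units, 7 of 38 other imprinted genes lay more than 2-fold below, where 11.3% of all genes did. At that minimum 3 members exceeded the median gene in the labeled intron to exon ratio, and with the leading transcripts alone 2 did. In the plane, a minimum of 10 units left 2 of 26 transcripts above the line. Subtraction of leakage gave 9 of 39 there and 8 at a labeled ratio from 1 upwards. Shares over all transcripts were not computed for these settings of the plane. The median degradation half-life was 19.9 min, but 4.84 min with Eq. 15 over both variables and 69.4 min with the second library read as total RNA. The median processing half-life was 3.37 min, but 1.82 min and 1.83 min under the same alternatives. Of the members' single half-lives 38 of 88 moved, and of their single exon ratios 3 of 80. Those 3, of Igf2r, Peg10 and Cdkn1c, fell further with leakage subtracted. Many of these comparisons could not move, so the counts overstate stability. Eq. 15 was not refitted where a solution existed, and only Impact and Sgce had 2 solutions to choose from. Gene sums repeat the leading transcript in Peg3, Impact and Igf2r. Another minimum or no centring shifts all members' exon ratios by the same amount, here under the 1.5-fold limit. The causes of the moves were not tested, apart from the fewer transcripts kept by a higher minimum. Promoter windows around other starts were not run, as no genome was used here. Without read depth, counting error per value is unknown.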
